A study of Brassica napus with 9 samples.

Results

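Whole pods of rapeseed (Brassica napus) that carried the CpFatB5 transgene were compared with pods of the cultivar Youngsan at 45 days after flowering (DAF), over all 91830 genes that the deposited count table lists. The study sequenced 9 RNA libraries, 1 for each of 3 lines at 8, 25 and 45 DAF, and the comparison used 2 of them, named C3 (Youngsan) and 53 (CpFatB5). Youngsan was the non-transgenic control and also the cultivar in which the transgenic lines were made. The CpFatB5 plants were homozygous T4 plants with an acyl-ACP thioesterase of Cuphea under the seed-specific Napin promoter of rapeseed, and both lines were grown in a greenhouse. The third line carried CpFatB4, another thioesterase of Cuphea, under the same promoter. Each library pooled RNA from 3 preparations of 1 or 2 pods, so that it held pod wall and seeds together. GEO's labels name the same time points as days after fertilization. The transgene itself was not analysed here.

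A thioesterase of the FatB class frees saturated fatty acids from the acyl carrier protein in the plastid, which ends their elongation there. In a ripening rapeseed pod the embryo first fills with storage proteins and with oil, held in oil bodies coated by oleosins, and later makes the late embryogenesis abundant (LEA) proteins that go with drying. Fatty acids are built in the plastid and assembled into triacylglycerol (TAG) at the endoplasmic reticulum.

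C3 held 69569296 counts and 53 held 38677752, the lowest total of the 9 libraries, each over 2 raw columns whose log2 ratio had an SD of 0.0510 in C3 and 0.0675 in 53. Those columns were averaged as repeats of 1 library. Hence n was 1 on each side, no test was possible, and the differences have no replicate check. Levels are normalized counts (counts divided by the library's size factor), differences are log2 values of 53 over C3, and an interval in brackets is the exact 95% interval of counting error, which covers no difference between plants. For abundant genes the 2 columns varied beyond counting error (chi-square per degree of freedom 3.13 in C3, 3.17 in 53). These intervals are therefore too narrow even for repeats of 1 library. A gene was called higher or lower when the 2 libraries differed at least 2-fold and their mean was at least 1000. In whole pods, fewer cells of a type and less RNA per cell cannot be told apart. Reads were counted on coding sequences, and near-identical copies can share them, so values of single copies are uncertain.

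Most genes past the minimum mean of 1000 were a little lower in 53, and a small separate set was higher by a large factor. Among the 6107 genes whose mean reached 1000, 245 (4.01%) were called higher and 782 (12.8%) lower, while 5080 (83.2%) lay within 2-fold. The median difference was -0.45 on the log2 scale. The split of the calls turned with the scaling. When the size factors came from the genes that average 1000 counts or more, which shifts every difference up by 0.47, 336 genes (4.65% of 7226) were higher and 112 (1.55%) lower. This setting is called the abundant-gene scaling here, and the shift means that small differences below are best read against the all-gene median.

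The genes called higher fell into 2 ranges with an empty stretch between them. A difference of at least 3 on the log2 scale was found in 217 genes, which is 3.55% of those past the minimum, and 28 lay between 1 and 2.23, whereas no gene lay between 2.23 and 3.20. The limit of 3 was set after the values were seen, and the 217 genes are called the large rises. As the minimum applies to the mean of both libraries, a gene low in Youngsan can pass through its CpFatB5 count alone. BnaCnng12730D, for example, had 56.5 normalized counts in Youngsan and 5327 in CpFatB5. The number of large rises and their share of genes therefore depend in part on this minimum. The lower side had no such gap: 698 of the 782 genes lay between -1.5 and -1, 13 at or under -2, and the lowest value was -2.80. Outside the large rises the median was -0.47, the quartiles were -0.80 and -0.15, and 87.9% of genes were below 0. When each library was divided by its total outside the large rises, that median was -0.02.

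**Figure D1:**
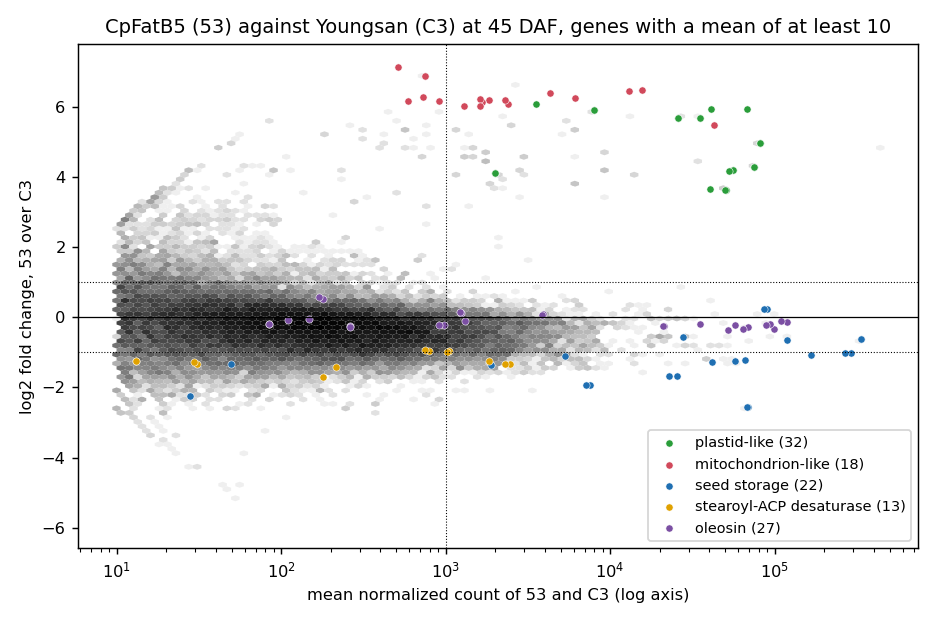
Difference between CpFatB5 and Youngsan at 45 DAF (log2 of 53 over C3, vertical axis) against the mean normalized count of both libraries (log axis), 1 point per gene, with lists of genes in colour. The 32 plastid-like and 18 mitochondrion-like genes lie above 3, apart from the main cloud, whose median sits at -0.45 for genes past the minimum of 1000. That median was above 0 under the abundant-gene scaling.

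The large rises filled much of the library from CpFatB5. Together the 217 genes held 0.992% of the counts of C3 and 24.7% of those of 53. In the other libraries they held 5.34% of 51, the CpFatB5 pods at 8 DAF, 3.33% of 43 and 3.09% of 41, the CpFatB4 pods at 45 and 8 DAF, and between 0.526% and 1.26% of 52, 42, C1 and C2. Hence 53 stood highest, and 52, the CpFatB5 pods at 25 DAF, lowest. These genes included the 8 most abundant genes of 53, none of which is annotated in the tables used here. The first of them, BnaC08g46150D, had 31635 normalized counts in C3, where it ranked 102, and 846558 in 53, where it ranked 1, a difference of 4.74. It alone held 2.26% of the counts of 53. The other 7, BnaAnng22160D, BnaA09g04420D, BnaAnng36730D, BnaAnng21760D, BnaC02g36110D, BnaC08g47040D and BnaCnng67370D, differed by 4.49 to 4.84. The 217 genes had only 133 distinct rows of counts, so many of them are copies that cannot be told apart, and a read may be counted in several of them. With identical rows counted once in the genes and in the total, a setting chosen after the values were seen, the share was 0.780% of C3 and 20.8% of 53.

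An annotation was at hand for 46 of the 217, and nearly all of these resemble genes that plants carry in their plastids or mitochondria. Such sequences also lie in the nuclear genome as inserted copies, and a mapping to coding sequences does not separate the sources. The list of plastid-like genes has 32 members, and in each of them 53 exceeded C3, by 3.63 to 6.09 with a median of 4.29. It was drawn from genes that the study named, 31 in its other comparisons and 1, BnaC03g70080D, in this pair of libraries only. Some of those other comparisons also used C3 or 53. Neither the value of that 1 gene nor the common direction of the list is therefore independent evidence. The whole list of 32 genes held 0.307% of all counts in C3 and 7.03% in 53, or 0.165% and 3.93% with identical rows counted once. BnaC03g60960D, similar to the gene for protein C of the photosystem II reaction center, had 5101 normalized counts in C3 and 158872 in 53, a difference of 4.96. BnaC06g14680D, similar to the gene for protein A of the same reaction center, went from 1316 to 80557 (5.94). The smallest difference of the list was that of BnaC09g16550D, similar to ribosomal protein S12A, with 7565 and 93430 (3.63). The 9 copies similar to the large subunit of ribulose-bisphosphate carboxylase, the carbon-fixing enzyme, ranged from 5.67 to 6.09. The highest of them was BnaC03g70080D with 103 normalized counts in C3 and 7001 in 53.

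The 18 mitochondrion-like genes were all higher in 53, by 5.48 to 7.13 with a median of 6.21, and their share of counts was 0.00830% in C3 and 0.519% in 53. Of the 18, 17 were listed by the study among its strongest differences of this same pair of libraries, so neither their direction nor their size is independent evidence, and their size was not compared with that of the plastid-like genes. BnaCnng12720D, similar to subunit III of cytochrome c oxidase, the last enzyme of respiratory electron transport, had 348.8 normalized counts in C3 and 31061 in 53, a difference of 6.48 [6.31, 6.64]. BnaC01g27090D, annotated with the same subunit, differed by 6.45. BnaC04g21290D and BnaCnng12480D, annotated as cytochrome oxidase, differed by 6.38 and 6.08. Subunits of NADH dehydrogenase, the entry complex of that chain, showed 6.23 in BnaCnng12800D, 6.18 in BnaCnng13090D and 6.14 in BnaCnng48530D. The ATP synthase genes BnaC01g26930D and BnaCnng12890D differed by 6.22 and 6.20. The 1 gene listed outside this pair, BnaCnng12640D, had 1874 and 83725 normalized counts (5.48). Apart from it, the genes named here were chosen as the largest annotated differences.

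The lists cover only genes that the tables used here annotate, and 171 of the large rises have no annotation there, so how many of these also resemble organelle genes was not analysed here. The 173 large rises outside both lists held 0.678% of the counts of C3 and 17.1% of those of 53, with a median difference of 4.51. BnaCnng12730D, which has no annotation in the tables used here, showed the largest difference past the minimum, with 56.5 normalized counts in C3 and 5327 in 53 (6.56). BnaCnng12600D, also without annotation, had 498 and 26594 (5.74).

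The large rises lay close together. Gene identifiers of this genome run along each chromosome in steps of 10, and 163 of the 217 genes (75.1%) had another member as a direct neighbour, against 59 of the 782 lower genes (7.54%) and 4 of the 28 smaller rises (14.3%). There were 12 runs of at least 5 adjacent large rises, with 107 genes in all. The longest run, of 15 genes on chromosome C09, held 7 genes of the plastid-like list, which leaves out genes without annotation here. Chromosome C09 carried 61 large rises, which is 18.2% of its 336 genes past the minimum, while A03, A07 and A08 carried none. The share was 1.65% of 2795 genes on the A chromosomes, 4.55% of 2750 on the C chromosomes and 8.19% of the 562 genes not placed on a chromosome, of which 201 are assigned to the A and 339 to the C subgenome. A large rise can itself lift a gene past the minimum, so these shares depend in part on that minimum. Called lower were 13.1% of genes on both A and C chromosomes, so the lower genes were spread evenly between them, although single chromosomes ranged from 8.33% on C09 to 18.3% on C01.

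**Figure D2:**
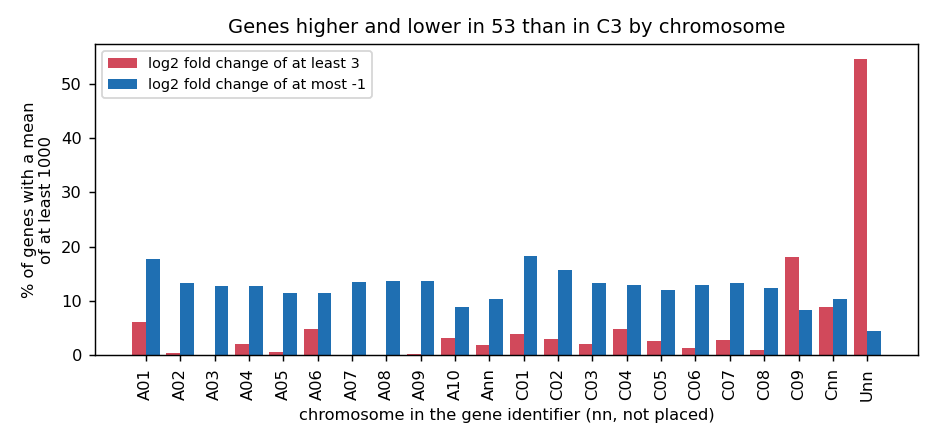
Share of the genes past the minimum that differed by at least 3 (large rises) or were called lower (percent, vertical axis) on each chromosome of rapeseed, for 53 against C3. The large rises reach 18.2% on C09 and are absent from A03, A07 and A08, whereas the lower genes occur on every chromosome. The number of lower genes depends on the scaling, 782 as plotted and 112 with the abundant-gene scaling.

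Nuclear genes of photosynthesis did not follow the plastid-like genes. Of 16 genes that the study's ontology terms place in the photosystems and that are not plastid-like, 15 were below 0 in 53, with a median of -0.70 over the 16. For comparison, 87.9% of the genes past the minimum were below 0 outside the large rises. Only 1 of the 16 was 2-fold lower. Under the abundant-gene scaling 0 were, and the median was -0.23. BnaA07g12480D had 2811 normalized counts in C3 against 1620 in 53 (-0.80), and BnaA08g28710D had 1952 and 1186 (-0.72). BnaC05g12070D was the lowest, with 938 and 409 (-1.20). The exception was BnaA06g19430D at 4.93, a gene that lies within the run of 14 large rises on A06. The part of pod wall, seed coat and embryo in these values was not tested.

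**Figure D3:**
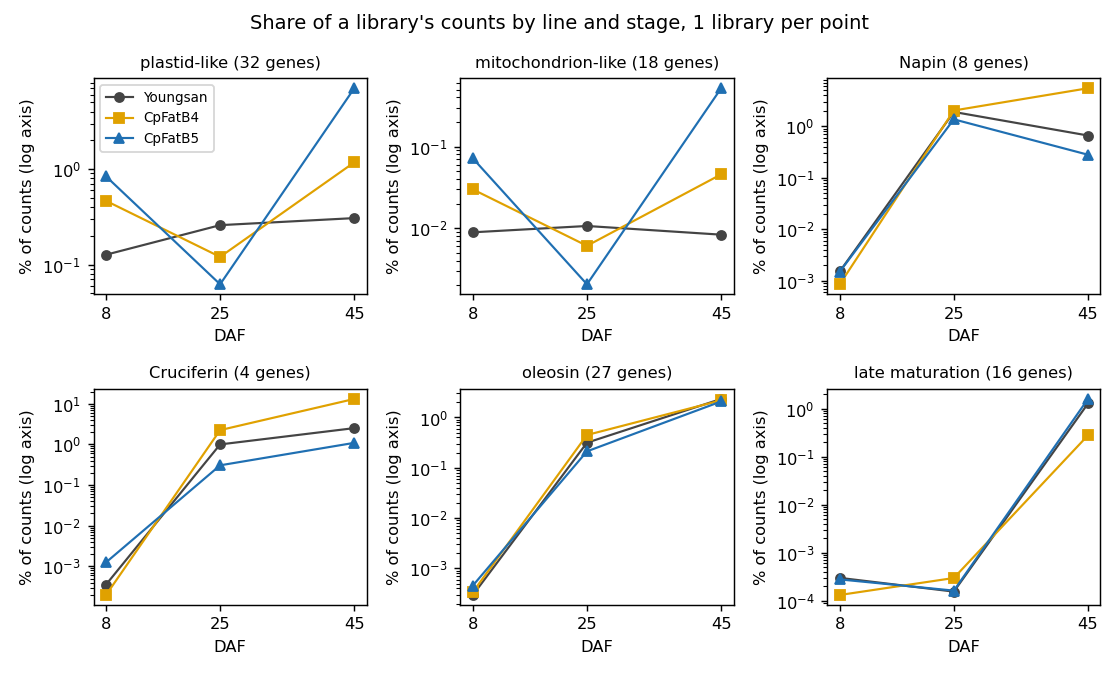
Share of a library's counts (percent, log axis) held by 6 lists of genes at 8, 25 and 45 DAF, 1 line per genotype and 1 library per point. In CpFatB5 the plastid-like share went from 0.839% at 8 DAF to 0.0621% at 25 DAF and 7.03% at 45 DAF, while in Youngsan it stayed between 0.127% and 0.307%.

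Seed storage protein genes were lower in 53, to a different degree in each family. Of 22 such genes measured, 16 were at least 2-fold lower and none was 2-fold higher, with a median of -1.23. Over all 60311 genes with a mean of at least 10, 11.4% were at least 2-fold lower and 5.28% higher, with a median of -0.27. Under the abundant-gene scaling 7 of the 22 were 2-fold lower, against 3.18% of all genes, and the median was -0.76. Each of the 8 Napin genes, which encode a small albumin and share the family of the transgene's promoter, was 2-fold lower in 53 (median -1.34), and 3 of 8 were under the abundant-gene scaling (median -0.87). BnaC01g43250D, the most abundant, had 92884 normalized counts in C3 and 40101 in 53, a difference of -1.21 [-1.23, -1.19]. BnaA03g48490D and BnaC07g40770D were lower still, with 11336 and 12005 in C3 and 2965 and 3156 in 53 (-1.94 and -1.93). As a share of all counts Napin stood at 0.666% in C3 and 0.282% in 53, and outside the large rises at 0.672% and 0.374%. The lower share was thus present with and without those genes.

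The 4 Cruciferin genes, which encode the main globulin of the seed, split by type. Cruciferin 2 had among the lowest values of the whole comparison. BnaA10g02240D had 117698 normalized counts in C3 against 19985 in 53 (-2.56 [-2.59, -2.53]), and BnaC05g02160D had 115528 and 19700 (-2.55). The cruciferin 3 genes BnaA01g08350D and BnaC01g09900D differed by only -1.02 and -1.01. The intervals of counting error of the 2 types did not overlap, but they cover no difference between plants.

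Other cupins, proteins with the fold of the seed globulins, ranged from lower to slightly higher. The genes similar to AT5G44120 were the most abundant genes of C3. BnaA06g36310D had 405958 normalized counts there and 265574 in 53 (-0.61), BnaC07g48660D differed by -0.62, and BnaA08g13680D by -1.09. They ranked 1 and 2 in C3 (BnaA06g36310D and BnaC07g48660D) and 9 and 10 in 53, behind the unannotated large rises. Cupins similar to AT4G36700 were lower, with 38806 in C3 and 12211 in 53 for BnaC03g61870D (-1.67) and 34829 and 11005 for BnaA08g15380D (-1.66). The pair similar to AT3G22640 stood slightly above 0, at 0.24 in BnaCnng28630D and 0.23 in BnaA01g24560D, and above the all-gene median by 0.50.

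Oil bodies and late maturation genes did not follow the storage genes. None of the 27 oleosin genes was 2-fold higher or lower (median -0.19, and 0.28 under the abundant-gene scaling). BnaA08g14540D, the most abundant oleosin, had 124565 normalized counts in C3 and 114536 in 53 (-0.12). Caleosins and steroleosins, further proteins of the oil body surface, had medians of -0.22 and -0.26, each of them near the all-gene median and above 0 under the abundant-gene scaling. The ratio of one list's counts to the oleosin counts of the same library does not depend on the scaling. For Napin that ratio was 0.285 in C3 and 0.135 in 53, for Cruciferin 1.08 and 0.525.

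A list of 16 late maturation genes was taken from the study's strongest differences between 25 and 45 DAF in CpFatB4, and several of them were also listed for the stages of the compared lines, so the list is not independent of these libraries. All 16 were within 2-fold, with a median of 0.40, and relative to oleosins their counts went from 0.549 in C3 to 0.764 in 53. The Em-like genes, which encode a hydrophilic LEA protein of the dry seed, lay higher. BnaA05g34530D had 19292 normalized counts in C3 against 36177 in 53 (0.91 [0.88, 0.94]), and BnaA03g18930D 12434 and 17794 (0.52). Seed maturation genes similar to AT3G22490 had a median of 0.43 and lectin genes similar to AT3G21380 one of 0.35. LEA genes were not uniform, since those similar to AT2G42560 were lower, with 42396 and 15090 in BnaC04g48420D (-1.49) and a value of -1.41 in BnaA04g24580D. In the CpFatB4 library 43, which is compared with the same C3, the median of the 16 genes was -1.93. Isocitrate lyase, an enzyme of the glyoxylate cycle that turns stored fat into sugar, had 24264 and 23322 in BnaA03g36420D (-0.06).

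**Figure D4:**
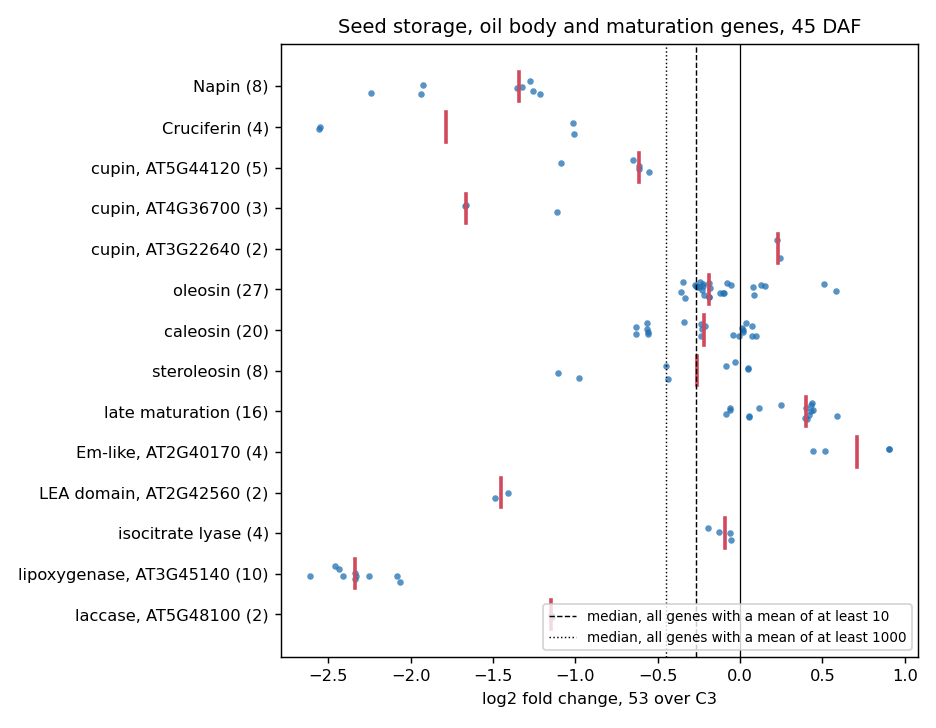
Difference between 53 and C3 (log2, horizontal axis) of each gene in lists of seed genes, 1 point per gene with a mean of at least 10. Napin, Cruciferin and the cupins similar to AT4G36700 lie below -1, the 27 oleosins around -0.19, and Em-like genes highest at up to 0.91; the abundant-gene scaling shifts all points up by 0.47 and puts the oleosin median above 0.

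Seed coat and regulator genes were lower in 53 as well. For comparison, 11.4% of all genes were 2-fold lower, or 3.18% under the abundant-gene scaling. Both laccase genes similar to AT5G48100, which acts in the seed coat of Arabidopsis, were 2-fold lower, with 401 and 181 normalized counts in BnaC02g38340D (-1.14), but neither was under the abundant-gene scaling (median -0.68). WRI1, a transcription factor that activates genes of glycolysis and fatty acid synthesis, was 2-fold lower in 4 of 4 genes with a median of -1.27, or in 2 of 4 under that scaling. Its most abundant gene, BnaA07g16350D, had 204 normalized counts in C3 and 65.0 in 53 (-1.65 [-2.20, -1.09]). The counts of WRI1 were low and its interval wide. The genes of bZIP67, a seed transcription factor, were lower by a like amount, with 294 and 96.1 in BnaC03g54810D (-1.62). ABI3, a master regulator of seed maturation that acts with abscisic acid, had 3287 and 1657 in BnaA03g37510D (-0.99) and a value of -1.03 in BnaC03g44820D. FUS3, another regulator of that network, had a median of -0.57 with no gene 2-fold lower, and ABI4, a regulator of the response to abscisic acid, one of -0.35 that was above 0 under the abundant-gene scaling. No gene of LEC1 or LEC2 reached a mean of 10. Relative to the all-gene median the regulators thus stood lower by amounts that differed widely, with bZIP67 and WRI1 farthest from it.

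Genes for building fatty acids in the plastid were lower as a group, apart from the subunit that the plastid genome encodes. Of 103 such genes with a mean of at least 10, 46 were at least 2-fold lower and 5 higher, with a median of -0.93. Over all genes past that mean the shares were 11.4% and 5.28%, with a median of -0.27. Under the abundant-gene scaling 9 were lower and 7 higher, with a median of -0.46, against 3.18% and 11.4% of all genes. Without the plastid-like subunit 1 of the remaining 99 genes was 2-fold higher. Over all 116 nuclear genes of the list, whatever their mean, the share of counts outside the large rises was 0.106% in C3 and 0.0719% in 53. Relative to oleosins the counts of these 116 genes went from 0.0450 to 0.0260, a change that no scaling alters.

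The steps differed in size. Their numbers of 2-fold lower genes stand beside 11.4% of all genes, or 3.18% under the abundant-gene scaling. Plastidial pyruvate dehydrogenase, which supplies acetyl-CoA, had a median of -1.31 over 19 genes, 12 of them 2-fold lower (1 under the abundant-gene scaling), as in BnaC08g46110D with 1032 and 393 normalized counts (-1.39). The nuclear subunits of acetyl-CoA carboxylase (ACCase), which makes malonyl-CoA, had a median of -1.40 with 12 of 16 lower (6 under that scaling), the lowest abundant one being BnaA03g17570D with 484 and 149 (-1.70). Its carboxyltransferase beta subunit went the other way: 4 genes, BnaA10g13960D, BnaC05g37990D, BnaC09g27620D and BnaC09g27690D, had the same counts, 220 normalized counts in C3 and 3773 in 53 (4.10). Since these are identical counts, they are 1 measurement and belong to the plastid-like large rises. Of the condensing enzymes, KAS I was 2-fold lower in 6 of 6 genes (median -1.21) and KAS II, which extends palmitate to stearate, in 8 of 8 (median -1.84). Under the abundant-gene scaling these numbers were 0 of 6 (median -0.74) and 6 of 8 (median -1.37). BnaA07g31890D, the most abundant KAS II gene, had 678 and 209 (-1.69), and BnaCnng08220D was the lowest with 197 and 34.9 (-2.50 [-3.28, -1.79]). KAS III, which starts the chain, had a median of -0.38, and the medians of the reductase KAR, the dehydratase HAD and the reductase ER were -0.63, -0.25 and -0.87. The acyl carrier proteins, which hold the growing chain, did not differ by more than 2-fold in any of 8 genes (median 0.00). The medians of KAS III, HAD and the acyl carrier proteins were above 0 under the abundant-gene scaling.

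**Figure D5:**
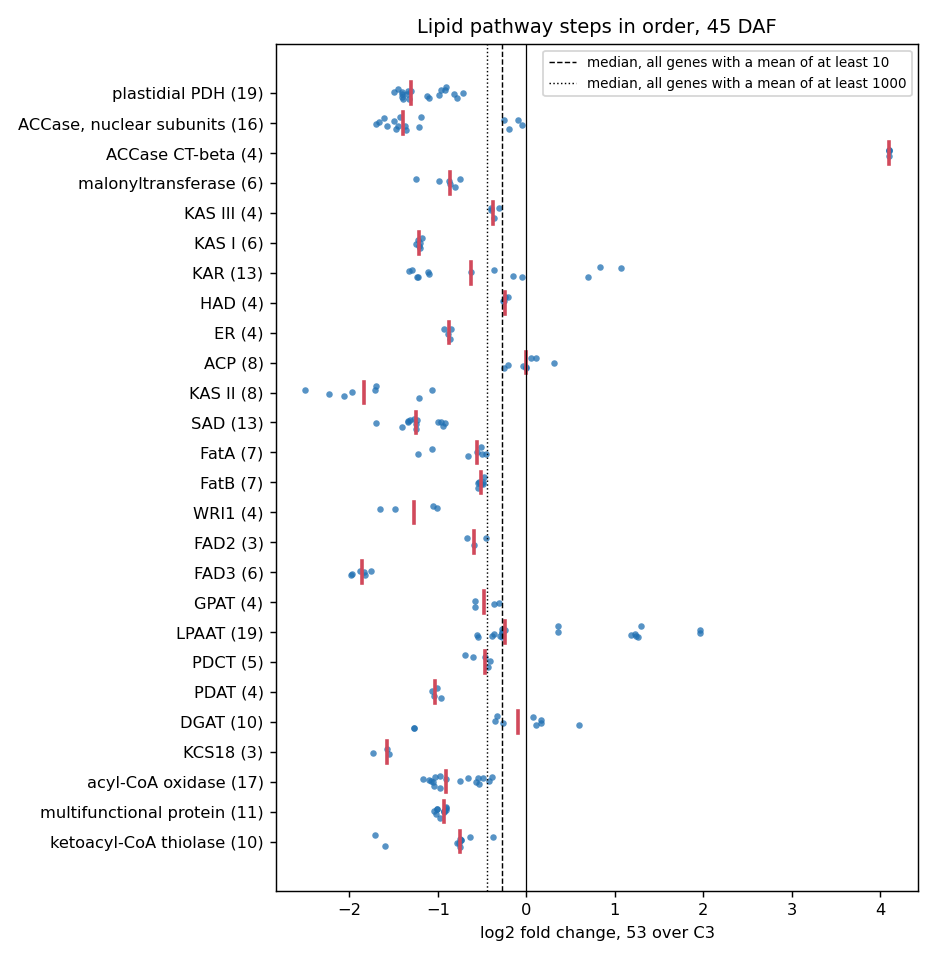
Difference between 53 and C3 (log2, horizontal axis) for the genes of each step of fatty acid and TAG metabolism, 1 point per gene with a mean of at least 10. KAS II and FAD3 have the lowest medians, -1.84 and -1.86, and the carboxyltransferase beta subunit the highest, 4.10; the abundant-gene scaling shifts all points up by 0.47 and puts several medians, such as those of HAD, KAS III, the acyl carrier proteins, LPAAT and DGAT, above 0.

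Among the enzymes that decide chain length and desaturation, the stearoyl-ACP desaturases (SAD), FAD3 and KCS18 were lower, and the endogenous thioesterases lay close to the abundant genes as a whole. SAD, which makes oleate, was at least 2-fold lower in 10 of 13 genes, with a median of -1.25, or in 1 of 13 under the abundant-gene scaling (median -0.78). Of all genes 11.4% were 2-fold lower, or 3.18% under that scaling. BnaA03g28050D had 3552 normalized counts in C3 and 1402 in 53 (-1.34), BnaC03g33080D 3266 and 1309 (-1.32), and BnaA01g32860D 2594 and 1101 (-1.24). Thus the 3 most abundant SAD genes differed by nearly the same factor. FatA, the thioesterase that releases mostly oleate, had a median of -0.56 with 2 of 7 genes 2-fold lower (0 under that scaling), BnaA07g05070D (97.4 and 41.7, -1.23) and BnaCnng00070D (114 and 54.3, -1.07). The 7 endogenous FatB genes lay in a narrow band from -0.55 to -0.48, and BnaA06g04900D had 810 and 567 (-0.52 [-0.72, -0.32]). Their median was below that of all genes with a mean of at least 10 by 0.25.

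The desaturases of the endoplasmic reticulum differed from each other. FAD2, which makes linoleate, had 4550 normalized counts in C3 and 3306 in 53 in BnaC05g40970D (-0.46), with values of -0.67 in BnaA05g26900D and -0.59 in BnaAnng09250D. FAD3, which makes linolenate, was 2-fold lower in 6 of 6 genes under both scalings, by -1.98 to -1.76 under the main one. BnaC04g14820D had 476 and 134 (-1.83 [-2.22, -1.46]). Every interval of a FAD3 gene lay below every FAD2 value, but these intervals hold counting error only and cover no difference between plants. KCS18, the condensing enzyme that elongates oleate on the way to erucate, was 2-fold lower in 3 of 3 genes under both scalings, with 3133 and 1053 in BnaA08g11130D (-1.57) and 3069 and 1044 in BnaC03g65980D (-1.56). Relative to the oleosin counts FAD2 changed by -0.32, FAD3 by -1.66 and KCS18 by -1.35 on the log2 scale.

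TAG assembly showed smaller differences than fatty acid synthesis. Of 190 genes annotated to it, 27 were 2-fold lower and 7 higher with a median of -0.35, or 0.12 under the abundant-gene scaling, and the shares were near those of all genes, 11.4% and 5.28%, as was the median. All of those 7 were genes of LPAAT, which adds the second acyl chain, and the highest past a mean of 100 was BnaC06g22630D with 83.4 and 205 normalized counts (1.29 [0.87, 1.76]). The abundant LPAAT genes BnaCnng07280D and BnaA07g17400D stood at -0.28. DGAT, the last step, split by type: BnaA07g36000D, similar to AT2G19450, had 3180 and 2516 (-0.34), and BnaC08g46660D, similar to AT1G48300, had 2466 and 1025 (-1.27). PDAT, which takes the last acyl chain from a phospholipid, was 2-fold lower in 3 of 4 genes, with 1364 and 653 in BnaC02g04910D (-1.06), but in 0 of 4 under the abundant-gene scaling (median -0.56).

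Genes for breaking down oil and fatty acids lay near the all-gene values as a class. In it 23 of 155 genes were 2-fold lower and 3 higher, against 11.4% and 5.28% of all genes, with a median of -0.43 that was above 0 under the abundant-gene scaling. In peroxisomal beta-oxidation the median was -0.91 for acyl-CoA oxidase, -0.94 for the multifunctional protein and -0.75 for the thiolase. BnaA03g29710D, a multifunctional protein, had 9678 normalized counts in C3 against 5064 in 53 (-0.93), and BnaA05g10480D, a thiolase, had 13310 and 7950 (-0.74). The TAG lipase BnaAnng00900D, similar to AT5G04040, was lower by more, with 467 and 135 (-1.79).

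Genes of a lipoxygenase, an enzyme that oxidizes polyunsaturated fatty acids, were strongly lower. All 10 genes similar to AT3G45140 were lower in 53, by -2.61 to -2.06 with a median of -2.34, and the study had listed members of the family from these same libraries. BnaC06g18870D had 5553 normalized counts in C3 and 1311 in 53 (-2.08 [-2.20, -1.97]), BnaA07g19600D 5474 and 1309 (-2.06), and BnaA07g24880D 1041 and 171 (-2.61). The family was 2-fold lower in 10 of 10 genes under the abundant-gene scaling too. At 8 DAF its median was -0.78 in 51 over C1, and at 25 DAF it was 0.60 in 52 over C2, so the direction at 25 DAF was opposite to that at 45 DAF.

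The remaining lipid classes differed from each other. Among 102 sphingolipid genes 10 were 2-fold higher and 3 lower, against 5.28% and 11.4% of all genes, with a median of 0.02 that was above the all-gene median by 0.29. Under the abundant-gene scaling 16 were higher and 3 lower, against 11.4% and 3.18%. The higher genes were mostly copies of 1 gene: the 8 copies similar to AT2G37940, which can share reads, lay between 1.57 and 1.71. Of these, BnaA05g06710D went from 175 normalized counts in C3 to 574 in 53 (1.71 [1.43, 2.01]). Of 341 genes for fatty acid elongation and wax, 78 were 2-fold lower and 12 higher, and of 211 for eukaryotic phospholipids 36 and 7, against 11.4% and 5.28% of all genes. Under the abundant-gene scaling the numbers were 31 lower and 28 higher for elongation and wax and 12 and 15 for phospholipids. The shares of all genes were then 3.18% and 11.4%. The lipid transfer proteins among them held both the highest and the lowest value, 2.19 in BnaC03g14230D (57.7 and 263) and -2.79 in BnaA08g03050D (188 and 27.2). The lowest value past the minimum of 1000 belonged to BnaC05g45930D, without annotation, with 3656 and 524 (-2.80). The 2 columns of 53 held 218 and 323 counts for it, so its size is uncertain. BnaC03g13250D, also without annotation, had 2173 and 515 (-2.08).

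Lower values were frequent in some sets of genes with a strong change over pod development in CpFatB4, whose libraries were not part of the comparison. Of 523 genes that were at least 4-fold higher at 25 than at 8 DAF in CpFatB4, 206 (39.4%) were 2-fold lower in 53 than in C3 and 4 higher, with a median of -0.80, against 11.4% and 5.28% of all genes with a median of -0.27. Genes that were 4-fold lower at 45 than at 25 DAF in CpFatB4 gave a like picture, with 93 of 254 (36.6%) lower, 6 higher and a median of -0.87. Genes that were 4-fold higher at 45 than at 25 DAF had a median of -0.25, with 54 of 420 higher and 73 lower. Outside the large rises and organelle-like lists only 6 of 372 of these were higher. Genes that were 4-fold lower at 25 than at 8 DAF went both ways, with 30 of 148 lower, 23 higher and a median of -0.46. These sets were not recounted under the abundant-gene scaling, where only 3.18% of all genes were 2-fold lower.

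Copies of one gene mostly moved together. For the 135 Arabidopsis genes with at least 3 rapeseed copies over a mean of 100, the range of the copies had a median of 0.14 on the log2 scale. All copies were at -1 or lower for 16 of them, at 1 or higher for 9, and on both sides of 0 for 14. Copies that are nearly identical share reads, so their values are not independent.

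At the earlier stages the same 2 lines differed in other ways. Over genes with a mean of at least 10 the median difference was -0.03 both in 51 over C1 and in 52 over C2, against -0.27 at 45 DAF. The plastid-like genes had a median of 2.66 at 8 DAF, -2.92 at 25 DAF and 4.29 at 45 DAF, and the mitochondrion-like genes 2.80, -1.68 and 6.21. Napin had medians of 0.05, -0.65 and -1.34, while FAD3 had 0.21, -0.48 and -1.86 and KAS II 0.05, -0.28 and -1.84. Each stage rests on its own pair of single libraries, and the differences between stages were not tested.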

How the data were processed

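Whole pods were sequenced as paired-end TruSeq libraries on a HiSeq, 1 per line and stage. Per the study's methods, the authors trimmed reads with SolexaQA, mapped them with Bowtie2 2.1.0 to Genoscope coding sequences with at most 2 mismatches, and normalized read counts with DESeq. The deposited table holds raw columns of whole-number counts with grouped digits, 2 per library and never below 1, and the authors' normalized values, a score that was used only as a check.

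The 2 raw columns of each of the 9 libraries were averaged and divided by median-of-ratios size factors over all 18 columns, 0.893 for C3 and 0.515 for 53. No recomputed value was more than 0.500 away from those in the 13 normalized columns, which include C3 but none of 53. A call needed a log2 difference of at least 1 and a mean normalized count of at least 1000, and lists were described over genes with a mean of at least 10. Values under 3 counts were treated as 3. With 1 library a side no test was run, and shares have Wilson intervals, fold changes exact Clopper-Pearson intervals at 95%. On simulated counts the steps recovered 200 of 200 changed genes among 91830 and called 0 others. The simulation held counting error only, with log2 changes of 2 placed evenly up and down in abundant genes. It lacked the extra spread between columns and the large rises, so it does not bear on how the calls depend on the scaling.

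Named are the 10 largest annotated differences each way, at most 2 unannotated ones each way, the 10 most abundant genes of each library, for each list the 2 most abundant genes and the largest rise and fall past a mean of 100, and the genes of FatA, FatB, SAD, KCS18, FAD2, FAD3, Napin, Cruciferin and the carboxyltransferase subunit. Some genes were named beyond this after their values were seen. The comparison, lists and rules were chosen with earlier results of these data known. Gene names come from the study's annotation. Alternatives were other scalings, minima, fold limits, single columns and identical genes counted once. The tools were Python 3.11.15 with scipy 1.17.1, pandas 2.3.3, matplotlib 3.10.9 and numpy 2.4.6.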

Additional observations from a re-analysis of the deposited data

Results flagged for a closer look

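Between CpFatB5 and Youngsan, 3 lists stood out because their medians differed one way at 25 DAF and the opposite way at 45 DAF. The plastid-like and mitochondrion-like genes were drawn from differences that the study named in these same libraries, so the size of this contrast is not independent evidence. The difference between the stages was not tested, since each stage has 1 library a line.

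The carboxyltransferase beta genes had a median of -3.25 at 25 DAF and 4.10 at 45 DAF, a change of 7.35 on the log2 scale. For the plastid-like genes the medians were -2.92 and 4.29, a change of 7.21. The mitochondrion-like genes had -1.68 and 6.21, a change of 7.89. The carboxyltransferase genes have identical counts and are part of the plastid-like list, so the first 2 values are not separate observations. At 8 DAF the medians of the plastid-like and mitochondrion-like genes were 2.66 and 2.80.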

How the results depend on the processing

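No paired analysis was possible because each line and stage has 1 library. The medians of fatty acid synthesis, storage, plastid-like and mitochondrion-like genes kept their sign in all alternatives run. Of the 42 genes checked singly, which are the largest differences and the most abundant genes, 1 changed sign under a setting. The other genes named from lists were not checked singly. Differences between about -0.47 and 0 turn positive under the abundant-gene scaling. With the abundant-gene scaling 336 genes were higher and 112 were lower, and the medians were -0.46 for fatty acid synthesis, -0.76 for storage, 4.76 for plastid-like and 6.68 for mitochondrion-like genes. With size factors from the 4 columns of C3 and 53, 210 were higher and 399 lower, and these medians were -0.83, -1.13, 4.40 and 6.31. After 1 was subtracted from every count, 270 were higher and 271 lower, with medians of -0.65, -0.94, 4.59 and 6.54. The total outside the large rises, a setting chosen after the data were seen, gave 289 higher and 123 lower. Its medians were -0.48, -0.79, 4.74 and 6.66. A minimum of 200 gave 574 higher and 2611 lower genes and -1.19 for fatty acid synthesis, a minimum of 10 gave 3185 and 6865, and no minimum 5076 and 8141. A minimum on the mean of all 9 libraries gave 121 higher genes, a log2 limit of 2 gave 13 lower, and identical genes counted once gave 161 higher and 4.96 for plastid-like genes. The second column alone gave 6.32 for mitochondrion-like genes. TMM scaling gave 242 higher and 955 lower, total counts 239 and 596. The depth of 53 leaves genes with few counts with wide intervals.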

Other observations

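The 28 genes called higher by less than 3 on the log2 scale carry no annotation in the tables used here. The share of genes that were higher by at least 3 was lowest, 0.432%, for a mean between 100 and 300 and highest, 15.3%, above 10000, and it was 1.22% between 10 and 30. A large rise itself raises the mean of both libraries, so these shares show no separate relation with abundance. The 20 most abundant genes of C3 held 9.15% of its counts and 6.12% of those of 53, or 9.24% and 8.12% of the counts outside the large rises.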
